A study of Mus musculus with 6 samples.

Results

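The promoters examined here are those of the Zfp genes, the mouse genes named as zinc finger proteins with a number. Members were the protein-coding genes of the GENCODE vM21 basic annotation on GRCm38 whose symbol is Zfp followed by digits and at most 1 letter. The rule used the symbol alone and no measured value. It gave 391 of 21938 genes, with 815 of 41525 promoter windows, that each extend 2.5 kb upstream and downstream from an annotated transcription start (TSS). A promoter was called marked in a list when a peak of acetylated histone H3 lysine 27 (H3K27ac), a mark of active promoters and enhancers, overlapped any window of its gene.

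The peaks came from ChIP-seq of bulk retina, 1 retina per list, from wild-type (WT) mice aged 3 months at the first pressure elevation. In the 4xIOP group (n = 3) the intraocular pressure (IOP) of 1 eye was held at 30 mmHg for 1 h, and this was repeated biweekly to 4 elevations in all. The control group (n = 3) consisted of contralateral eyes that were left unpressurised, so that controls came from animals whose other eye had been pressurised. All retinas were collected on day 2 after the fourth elevation. The treatment text shared by the samples also mentions dasatinib or vehicle injections, but no drug is listed for any of these 6 samples. The comparison addresses whether recurring mild pressure stress alters this active mark in young retina.

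Before the results, a mismatch has to be stated. In 4 of the 6 lists (control replicates 1 and 2, 4xIOP replicates 1 and 2) the deposited name is that of the other group. The lists were kept as labelled. Following the deposited names instead would regroup the lists rather than turn a sign, so each difference between groups, in size and in direction, holds for the labels only. The lists held between 16195 peaks (4xIOP replicate 3) and 36509 peaks (control replicate 3), and the background recovered from them was 87.4 to 173 fragments per 10 kb. A missing peak therefore means a signal under the threshold of that list, not an absence of the mark. Between 6 and 8 of 11 retina marker promoters were marked per list, with Nrl, Otx2, Pde6b, Gnat1 and Rcvrn marked in all 6, while Pax6 and Rlbp1 were marked in 0. None of 5 retinal pigment epithelium and none of 5 microglia markers was marked in any list. Of 5 endothelial markers only Kdr was marked, in control replicates 1 and 3. In bulk tissue, fewer cells carrying the mark and less mark per cell cannot be told apart.

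Zinc finger proteins of the C2H2 type bind DNA or RNA through tandem fingers folded around zinc. Many mouse Zfp genes encode proteins with a KRAB domain, which recruits the co-repressor TRIM28 (KAP1) and the methyltransferase SETDB1 to silence retroelements and to protect imprinted loci. These genes arose largely by tandem duplication and lie in clusters, and their coding exons are known in other tissues to carry repressive H3K9me3 while their promoters stay open. Other genes with the Zfp symbol have no such domain and act as general transcription factors, RNA-binding proteins or developmental regulators.

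To show what the windows look like, the 200 bases upstream of the gene start are printed for 3 members with very high enrichment in all 6 lists and for members with little or no mark (RefSeq GRCm38 genome, 5′ to 3′ on the gene's strand, CpG dinucleotides in capitals). The first 3 were marked in 6 lists and held 3, 7 and 12 CpG dinucleotides.
Zfp868 (chr8:69625549-69625748, minus strand): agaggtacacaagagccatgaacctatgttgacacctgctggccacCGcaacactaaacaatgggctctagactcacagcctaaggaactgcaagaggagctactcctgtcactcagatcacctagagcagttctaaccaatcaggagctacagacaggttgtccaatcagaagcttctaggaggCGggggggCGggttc
Zfp433 (chr10:81704625-81704824, plus strand): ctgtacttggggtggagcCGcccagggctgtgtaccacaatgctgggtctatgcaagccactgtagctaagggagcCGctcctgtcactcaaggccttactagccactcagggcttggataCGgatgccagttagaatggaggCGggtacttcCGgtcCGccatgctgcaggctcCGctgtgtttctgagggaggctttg
Zfp638 (chr6:83866909-83867108, plus strand): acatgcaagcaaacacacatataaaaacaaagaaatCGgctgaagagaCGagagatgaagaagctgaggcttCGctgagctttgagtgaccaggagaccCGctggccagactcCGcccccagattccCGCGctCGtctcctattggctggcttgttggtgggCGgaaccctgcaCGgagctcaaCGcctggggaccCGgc
Zfp820 was the unmarked member of the larger chromosome 17 cluster and held 5 CpG dinucleotides.
Zfp820 (chr17:21845773-21845972, minus strand): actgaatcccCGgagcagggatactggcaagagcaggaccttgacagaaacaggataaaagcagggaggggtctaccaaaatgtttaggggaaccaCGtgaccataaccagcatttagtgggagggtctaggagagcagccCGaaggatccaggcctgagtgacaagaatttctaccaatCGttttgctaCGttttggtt
The next 4 lie in 1 cluster on chromosome 4 and held 1 or 2 CpG dinucleotides each. Zfp990, Zfp980 and Zfp987 were marked in 0 lists and Zfp600 in control replicate 2 only. They and the chromosome 2 pair after them were chosen for display after their values were seen.
Zfp990 (chr4:145510559-145510758, plus strand): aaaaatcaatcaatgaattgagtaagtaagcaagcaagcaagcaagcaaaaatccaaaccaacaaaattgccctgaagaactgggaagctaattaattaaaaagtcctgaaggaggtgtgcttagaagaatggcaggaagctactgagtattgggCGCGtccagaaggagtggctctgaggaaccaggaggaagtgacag
Zfp980 (chr4:145670485-145670684, plus strand): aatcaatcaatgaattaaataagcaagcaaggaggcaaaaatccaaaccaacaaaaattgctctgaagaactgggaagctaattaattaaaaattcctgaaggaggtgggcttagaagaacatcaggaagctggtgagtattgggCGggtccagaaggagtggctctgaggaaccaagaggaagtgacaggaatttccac
Zfp987 (chr4:146097098-146097297, plus strand): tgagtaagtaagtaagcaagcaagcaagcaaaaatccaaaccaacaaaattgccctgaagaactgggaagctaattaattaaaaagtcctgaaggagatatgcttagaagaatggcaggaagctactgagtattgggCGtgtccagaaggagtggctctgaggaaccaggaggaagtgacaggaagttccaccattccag
Zfp600 (chr4:146156624-146156823, plus strand): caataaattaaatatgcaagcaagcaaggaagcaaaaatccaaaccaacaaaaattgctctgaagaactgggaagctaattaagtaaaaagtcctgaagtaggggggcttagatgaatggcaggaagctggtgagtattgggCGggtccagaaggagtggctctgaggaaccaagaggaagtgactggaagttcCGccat
Zfp968 (chr2:175372236-175372435, plus strand): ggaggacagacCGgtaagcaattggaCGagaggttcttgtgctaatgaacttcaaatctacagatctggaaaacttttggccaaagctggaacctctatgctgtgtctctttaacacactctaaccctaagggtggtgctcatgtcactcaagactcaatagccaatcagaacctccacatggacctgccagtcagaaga
Zfp965 (chr2:175469785-175469984, plus strand): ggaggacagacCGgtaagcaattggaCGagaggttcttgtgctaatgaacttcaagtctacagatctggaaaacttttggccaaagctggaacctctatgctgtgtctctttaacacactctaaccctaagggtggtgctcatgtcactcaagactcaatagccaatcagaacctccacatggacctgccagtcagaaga
Over these bases the 4 chromosome 4 sequences were 80.4% to 87.0% identical to each other in pairwise global alignment, and Zfp968 and Zfp965 were 99.5% identical. Zfp868 and Zfp638, which lie on different chromosomes, were 51.7% identical.

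Most Zfp promoters carried the mark in retina. In control replicates 1, 2 and 3, 82.6%, 79.0% and 88.7% of the 391 genes were marked. In 4xIOP replicates 1, 2 and 3 the shares were 81.3%, 79.0% and 76.5%. The highest share was in control replicate 3, which also held the most peaks, and the lowest in 4xIOP replicate 3, which held the fewest. The mean over the 6 lists was 81.2%, against 47.6% of the 21547 other protein-coding genes. Within a list the difference was 33.6 ± 0.987 percentage points (SD, n = 6 lists), with Zfp genes higher in 6 of 6 lists (two-sided exact sign-flip permutation test, p = 0.0312, the smallest p that 6 lists allow). The genes are the same in each list, so this p measures the spread between lists and not that between genes. In all, 14 such comparisons within lists were made, and the 11 that reached this p had a Benjamini-Hochberg adjusted p of 0.0398. Counted by window instead of by gene, 74.8% of Zfp windows and 48.1% of all windows were marked.

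**Figure D1:**
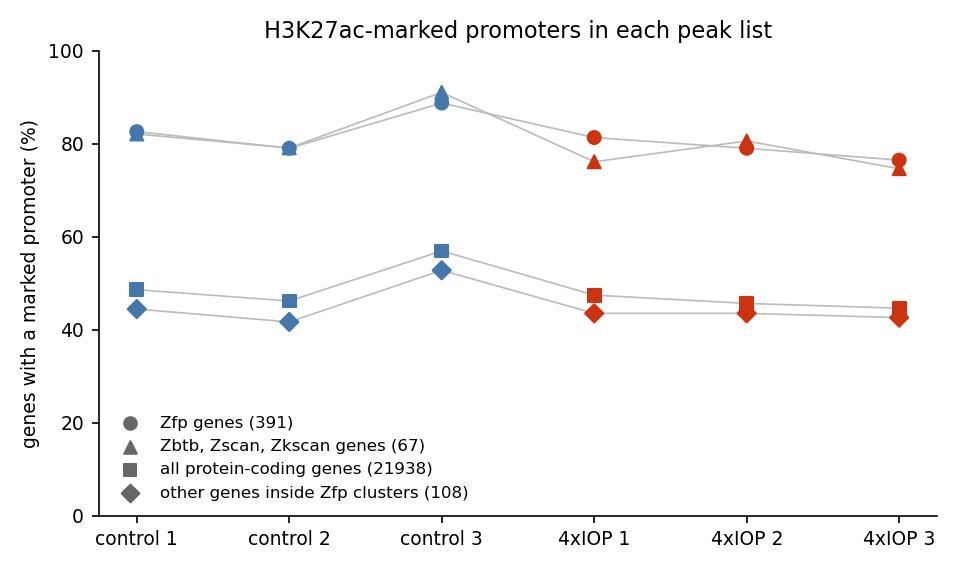
Percent of genes with a marked promoter (y axis, 0 to 100%) in each of the 6 peak lists (x axis, control in blue, 4xIOP in red) for 4 sets of genes, with grey lines joining lists of 1 set. Zfp genes sit between 76.5% and 88.7%, on the level of other zinc finger families and well above all protein-coding genes and the other genes inside the Zfp clusters.

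Other zinc finger families lay at the same level. Of the 67 Zbtb, Zscan and Zkscan genes, families that pair zinc fingers with BTB or SCAN domains, 80.6% were marked on average. The difference to the Zfp genes was 0.605 points over the 6 lists, ranging from -2.30 to 5.21 points, with Zfp higher in 3 of 6 lists (exact sign-flip permutation test, p = 0.656). By contrast, the 108 other protein-coding genes that start inside the Zfp clusters were marked at 44.8%, near the level of all coding genes (48.2%). The excess was also present among genes whose promoter lies alone. Without another coding TSS within 5 kb, 79.1% of 337 Zfp genes and 42.0% of 17351 other genes were marked, a difference of 37.1 points.

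The mark recurred from list to list. As many as 277 Zfp genes (70.8%) were marked in 6 lists and 41 (10.5%) in 0, compared with 38.9% and 43.0% of the other genes. The remaining 73 members (18.7%) were marked in 1 to 5 lists, a share close to the 18.1% of the other genes. Of the 16 marked in 1 list, 14 were marked in control replicate 3 and 2 in control replicate 2. Of the 24 marked in 5 lists, 11 were missing from 4xIOP replicate 3, 6 from control replicate 2, 4 from 4xIOP replicate 2 and 3 from 4xIOP replicate 1. Such members were thus gained most often in the list with the most peaks and lost most often in the list with the fewest.

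**Figure D2:**
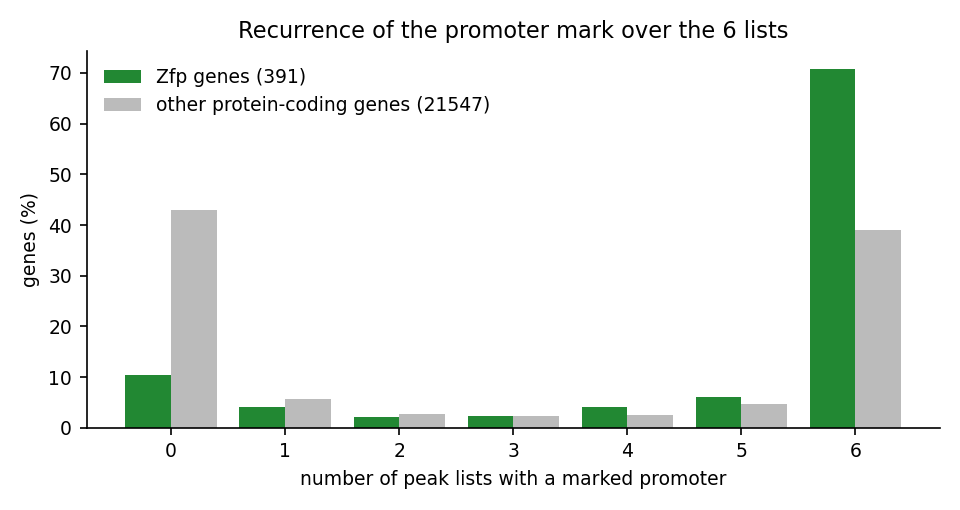
Percent of genes (y axis) by the number of peak lists, 0 to 6, in which their promoter was marked (x axis), for Zfp genes (green) and other protein-coding genes (grey). The Zfp genes pile up at 6 lists (70.8% against 38.9%), and 10.5% of them are at 0 lists against 43.0% of the others.

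Marked Zfp promoters were also strongly enriched. The fold enrichment of a peak is the ratio of its summit pile-up to the local background, with a small constant added to both. Because lists differ in depth, each promoter's highest fold was expressed as its percentile among the peaks of its own list. The median percentile of marked Zfp promoters by list was 80.5, 78.3 and 89.1 (control) and 82.6, 81.5 and 75.0 (4xIOP). It exceeded that of other marked promoters in 6 of 6 lists, by 6.81 ± 1.36 percentile points (SD, n = 6, exact sign-flip permutation test, p = 0.0312). Over the 277 members marked in 6 lists the mean fold ranged from 2.76 to 12.3 with a median of 6.10. Control replicate 3 had the highest median fold, 8.00, while the other 5 lists lay between 5.38 and 5.92.

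The 5 members with the highest mean percentile were Zfp868, Zfp433, Zfp638, Zfp866 and Zfp157. Zfp868 (chr8:69610857-69625548, minus strand) had control folds of 12.5, 12.6 and 15.2 and 4xIOP folds of 11.2, 11.7 and 10.7, and its mean percentile was 99.7. Zfp433 on chromosome 10 had control folds of 13.4, 13.0 and 15.4 and 4xIOP folds of 10.2, 10.9 and 10.2. Only 9.35% of the 100-mers of the Zfp433 windows occur once in the genome, so its reads may belong to near-identical copies and its values are uncertain. Zfp638, which encodes an RNA-binding nuclear protein that takes part in retroviral silencing, had control folds of 11.0, 9.91 and 12.7 and 4xIOP folds of 10.6, 8.91 and 8.72. Zfp868 and Zfp866 are members of the same cluster on chromosome 8.

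The shape of the peaks was compared next. The highest peak of a marked Zfp gene had its summit downstream of the nearest TSS in 76.6% ± 2.64 of cases (SD, n = 6 lists), against 69.8% ± 2.27 for other marked genes. Its summit lay within 500 bp of a TSS in 90.6% of cases, 5.59 points above the other marked genes. Both differences held in 6 of 6 lists (exact sign-flip permutation test, p = 0.0312 each). The median width was 598 ± 157 bp for Zfp genes and 540 ± 107 bp for the others, and here Zfp was wider in 5 of 6 lists (p = 0.0625, exact sign-flip permutation test), a difference that did not pass.

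Zfp genes were unevenly spread over the genome. They were found on 20 chromosomes, with 92 genes (23.5%) on chromosome 7, 45 on chromosome 17, 36 on chromosome 13, 30 on chromosome 4 and 28 on chromosome 2. On chromosome 7 the mean share marked was 84.8%, on chromosome 13 it was 87.0% and on chromosome 17 it was 88.5%. All members on chromosomes 10, 12 and 15 (6, 4 and 11 genes) were marked in 6 lists. The share was lowest on chromosome X (31.3% of 8 genes) and on chromosome 4 (37.8%). Of the other coding genes, 27.8% were marked on chromosome X and 52.1% on chromosome 4, so that only on chromosome 4 did Zfp genes lie below their chromosome's level. The shortfall on chromosome 4 was local. Over chr4:145510759-147848366, 13 of 18 members were marked in 0 lists, whereas in the rest of the chromosome this held for 2 of 12.

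Neighbouring members whose starts lay within 250 kb of the next were joined, and runs of at least 4 were called clusters. This gave 24 clusters on 10 chromosomes, 10 of them on chromosome 7, with 186 genes. The remaining 205 genes were dispersed. Clustered genes were marked at 79.9% and dispersed genes at 82.4%, a difference of -2.43 ± 0.768 points (SD, n = 6 lists) that was below 0 in 6 of 6 lists (exact sign-flip permutation test, p = 0.0312). The direction depended on the definition. With neighbours joined at 100 kb it became 5.75 points, and among genes with at least 90% of unique 100-mers it became 3.37 points, each with p = 0.0312 in the same exact sign-flip permutation test. Both directions passed, so the test supports neither for clusters in general. It was -3.32 points with neighbours joined at 500 kb, -3.68 points with equal numbers of peaks per list and -4.74 points for peaks with a −log10 q of at least 5.

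The mean share per cluster ran from 3.33% to 100%. In 7 clusters, holding 38 genes, each member was marked in 6 lists. These lie on chromosome 7 (3 clusters) and on chromosomes 8, 9, 10 and 11. An example is chr7:127233061-127615797, where Zfp553, Zfp771, Zfp768, Zfp747, Zfp764, Zfp688, Zfp689 and Zfp629 were all marked in all lists. In 5 clusters, holding 27 genes, no member reached 6 lists. These were chr2:175372436-175931100, chr4:145510759-146156824, chr4:146971976-147848366, chr7:7121488-7209998 and chr7:42505740-42692742, with mean shares of 33.3%, 3.33%, 16.7%, 54.2% and 20.8%.

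The 3 clusters with the most members were all widely marked. The largest (chr13:67061170-67813740) has 23 genes, of which 17 were marked in 6 lists and 0 in none, with a mean share of 91.3%. Its least marked member, Zfp456, was found in 1 list, while Zfp708 and 16 more reached 6. The larger cluster on chromosome 17 (chr17:21383748-22424222) has 18 genes, 13 of them marked in 6 lists and only Zfp820 in 0, at 88.9%. On chromosome 7, 15 genes at chr7:29768552-30169750 were marked at 92.2%, with 11 in 6 lists and none in 0.

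**Figure D3:**
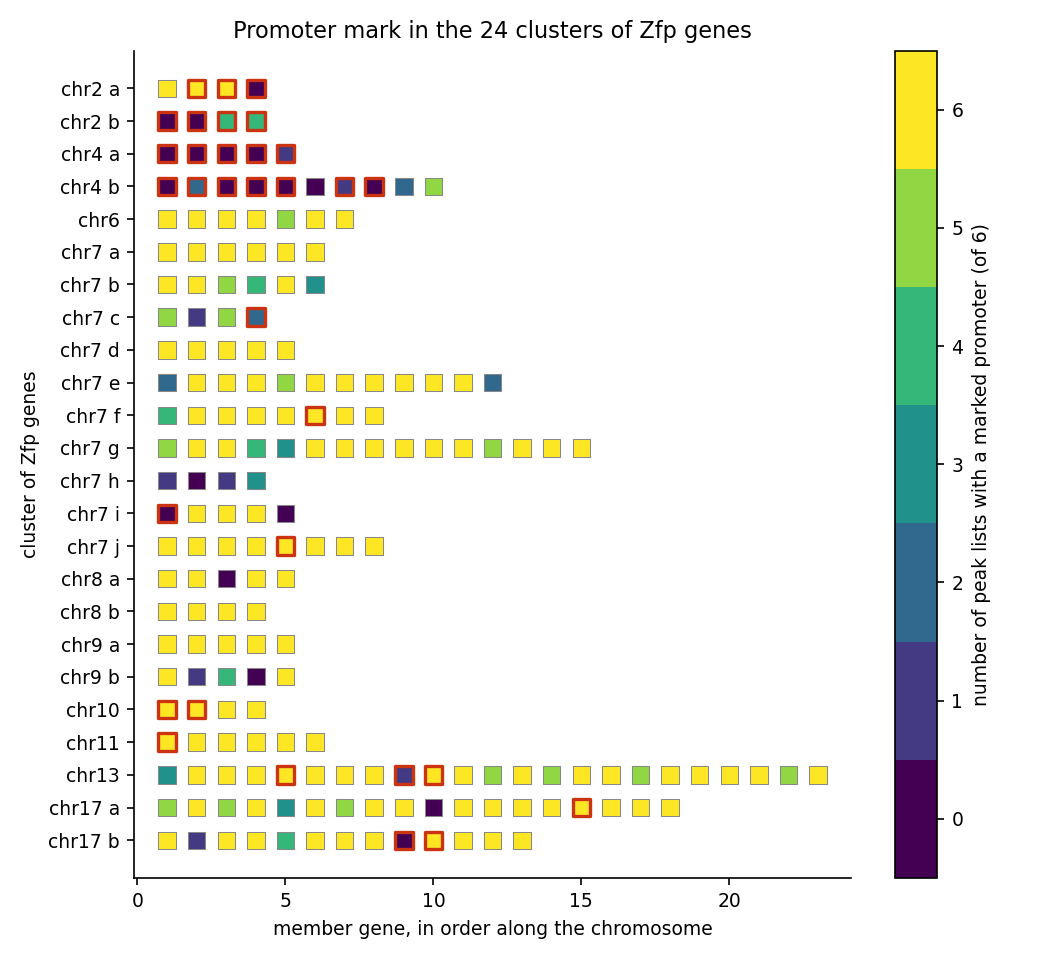
Each square is 1 Zfp gene, placed in a row for its cluster (y axis, chromosome and a letter) in order along the chromosome (x axis), and coloured by the number of lists, 0 to 6, in which its promoter was marked. Red outlines mark genes with under 90% of unique 100-mers, which fill most of the dark rows on chromosomes 2 and 4, while the dark chromosome 7 row h has none and several outlined genes elsewhere were marked in 6 lists.

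In 3 of these 5 weakly marked clusters many windows were repeated elsewhere in the genome, which limits where reads can be placed. Whether reads that map to several places were kept is not given in the sources used here, so neither a peak nor a missing peak in such windows can be assigned to 1 gene. The median share of 100-mers found once in the genome was 0% in the weakly marked chromosome 2 cluster and 37.7% and 52.8% in the chromosome 4 clusters. In the weakly marked chromosome 7 clusters, however, it was 98.2% and 97.3%, and in the chromosome 10 cluster, where all 4 genes were marked in 6 lists, it was 54.4%. Over all members, 35.6% of the 22 genes under 50% unique were marked, 59.5% of 28 genes between 50% and 90%, 83.3% of 86 between 90% and 99%, and 86.8% of 255 above. The other coding genes at 99% or more were marked at 52.7%. With both sets limited to at least 90%, Zfp genes exceeded other genes by 35.0 points. The part of read placement in the low clusters was not tested.

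Upstream sequences were compared within each cluster. The median pairwise identity of the 200 upstream bases was 81.4% in the cluster that holds Zfp990 and Zfp980, 64.9% in the second chromosome 4 cluster, 67.6% in the weakly marked chromosome 2 cluster and 62.0% at chr7:42505740-42692742. These were the 4 clusters with a median above 60%, and none of their members was marked in 6 lists. In the remaining weakly marked cluster, chr7:7121488-7209998, the median was 53.7%, below the 54.3% of the fully marked chromosome 10 cluster. The median over the 24 clusters was 50.3%. Among the sequences printed above, pairs from different chromosomes were 41.8% to 53.1% identical. Medians in or near this range do not by themselves show shared sequence. The chromosome 2 cluster was still partly marked. Zfp966 had folds of 6.05 in control replicate 3 and 4.65, 4.48 and 4.21 in 4xIOP, but 0% of its 100-mers are unique.

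CpG content was described because CpG-rich promoters are the class most often active across tissues. It was measured as the observed over expected number of CpG dinucleotides within 250 bp of the gene start. The median was 0.715 in the 277 members marked in 6 lists, 0.519 in those marked in 1 to 5 and 0.285 in the 41 unmarked members. In the 7 fully marked clusters the cluster medians ran from 0.620 to 0.797, and in the 5 clusters without a member in 6 lists from 0.223 to 0.536, so that these ranges did not overlap. The largest cluster, on chromosome 13, was widely marked at a median of only 0.447.

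Within each CpG class, set at the gene start, Zfp genes were marked more often than others. A gene counted as marked by a peak at any of its TSSs, which need not be the start that set its class. Zfp385b, for example, has 5 TSSs and a ratio of 0.12 at its start, and was marked in 6 lists. Where the peaks of CpG-poor genes lie relative to that start was not tested. Under 0.4, 54.2% of 75 Zfp genes and 13.3% of 8495 other genes were marked, a difference of 40.9 points. From 0.4 to 0.6 the shares were 77.5% and 38.8%, with a difference of 38.6 points. From 0.6 to 0.8 they were 89.6% and 69.2%, a difference of 20.4 points. At 0.8 or more they were 94.0% and 83.3%, a difference of 10.7 points. In each class Zfp was higher in 6 of 6 lists (exact sign-flip permutation test, p = 0.0312 each). The difference was thus larger in the CpG-poor classes, where few other genes were marked. Limited to genes with at least 90% of unique 100-mers, it was 52.6 points in the poorest class.

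**Figure D4:**
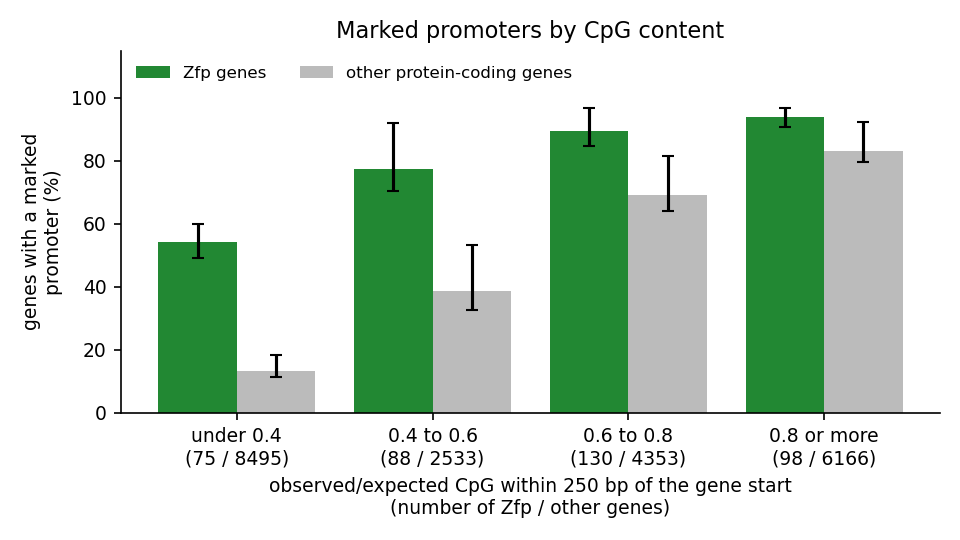
Mean percent of genes with a marked promoter over the 6 lists (y axis) in 4 classes of observed over expected CpG (x axis, with gene numbers) for Zfp genes (green) and other protein-coding genes (grey). Error bars run from the lowest to the highest list, and the gap between the bars narrows from 40.9 points in the poorest class to 10.7 in the richest.

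Short sequence motifs were searched on both strands from 250 bases upstream to 50 downstream of the gene start. The core ACTACAATT, part of the known recognition element of ZNF143, was present in 12 Zfp promoters (3.07%) and in 0.497% of all coding promoters. These 12 were Zfp992, Zfp933, Zfp128, Zfp180, Zfp235, Zfp114, Zfp108, Zfp93, Zfp1, Zfp454, Zfp692 and Zfp58, and 5 of them lie in the chromosome 7 cluster at chr7:24081924-24587641. Its own factor gene, Zfp143, is itself a member and was marked in 6 lists. The ETS element CCGGAAGT was in 8.95% of Zfp and 4.70% of all promoters and the NRF1 element GCGCATGCG in 4.60% and 2.48%. The CCAAT letters were in 45.3% and 39.0%, the GC box GGGCGG in 41.2% and 43.0%, the CRE TGACGTCA in 3.84% and 2.43%, and TATAAA in 6.91% and 12.6%. A match of letters is a description and does not show binding.

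The 41 unmarked members fell into different kinds. Of these, 27 had a CpG ratio under 0.4, 18 had under 90% of unique 100-mers, 16 had both and 12 had neither. Chromosome 4 held 15 of them. Among the 12 with neither was Zfp42 (Rex1), a marker of pluripotent stem cells, and Zfp296, another gene of pluripotent cells. Zfp541, known as a germ cell gene, was unmarked in spite of a CpG ratio of 0.999. Zfp819, which silences retroelements in early embryos, was unmarked at 0.856. Zfp750, a gene of epidermal differentiation, and Zfp683 (Hobit), a gene of tissue-resident lymphocytes, were unmarked at 0.320 and 0.124.

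Members with known roles were then followed list by list. Each of the 3 orthologues of human eye disease genes that the annotation holds as coding was marked in 6 lists, as were 70.8% of all members and 39.5% of all coding genes, so 3 of 3 does not set this short list apart. Zfp408, whose human orthologue is mutated in retinal vascular disease and retinitis pigmentosa, had control folds of 5.37, 7.92 and 6.02 and 4xIOP folds of 4.59, 6.72 and 4.69. Zfp513, also linked to retinitis pigmentosa in humans, had control folds of 7.82, 5.50 and 11.2 and 4xIOP folds of 6.43, 5.97 and 7.20. Zfp644, linked to high myopia, had control folds of 7.25, 5.64 and 8.62 and 4xIOP folds of 6.85, 5.71 and 6.19. In all 3 genes the folds of the groups overlapped.

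The 12 general regulators were marked at 97.2% on average, beside 81.2% of all members and 48.2% of all coding genes. Of these 12, 11 (91.7%) were marked in 6 lists, beside 70.8% of all members and 39.5% of all coding genes. Zfp384 had the highest mean percentile of the list, 94.9, with control folds of 7.54, 7.74 and 11.4 and 4xIOP folds of 6.61, 6.18 and 8.21. Zfp143, a promoter-binding activator, ranged from 6.43 to 7.45 over the 6 lists and had 58 to 118 fragments at its summit. Zfp410, which activates the chromatin remodeler gene Chd4, ranged from 5.23 to 6.41. The exception was Zfp36 (tristetraprolin), an mRNA decay factor induced by cell stress. It had folds of 3.22, 2.90 and 3.29 in control and 3.46 in 4xIOP replicate 3. The other 2 4xIOP lists held no peak in its windows. Summits lay at -1700 and -1450 bp from the TSS in control replicates 1 and 2 and at -1668 bp in 4xIOP replicate 3. In control replicate 3 the summit lay at 203 bp, so these folds do not come from 1 position. Where Zfp36 was marked its mean percentile was 22.5, so its peaks were among the weaker ones of these lists.

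Of 7 members that silence imprints and retroelements, 4 (57.1%) were marked in 6 lists, again beside 70.8% of members and 39.5% of coding genes. Zfp445, which protects imprints, had control folds of 4.71, 4.80 and 6.82 and 4xIOP folds of 3.97, 4.46 and 4.24. Zfp708 ranged from 4.79 to 7.06, Zfp932 from 3.65 to 7.23 and Zfp568, a repressor of placental Igf2, from 2.76 to 4.70. Zfp57, which binds methylated imprint control regions, and Zfp809, which silences murine leukaemia virus, were both missing from control replicate 2 and 4xIOP replicate 3. Their marked lists held 12 to 31 and 16 to 57 summit fragments. The presence of these 2 genes therefore varied within each group.

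Of 8 developmental members, 4 were marked in 6 lists (Zfp281, Zfp462, Zfp521 and Zfp703). The mean share of this small list was 62.5%, beside 81.2% of all members and 48.2% of all coding genes, and the difference was not tested. Zfp281, a regulator of stem cell states, ranged from 5.70 to 8.69. Zfp462, Zfp521 and Zfp703 stayed between 2.85 and 4.70, with mean percentiles of 30.5, 40.9 and 31.9. Zfp503 was missing from 4xIOP replicate 3 only and Zfp423, a cofactor of EBF proteins, was found in control replicate 3 only, with 19 summit fragments. Of 5 nervous system genes, Zfp292 (5.08 to 7.34) and Zfp536 (2.88 to 3.50), a repressor of neuronal differentiation, were marked in 6 lists, that is 2 of 5, beside 70.8% of all members and 39.5% of all coding genes. Zfp488, a factor of oligodendrocytes, was marked in 4 lists. Zfp804a, whose human orthologue carries a risk allele for schizophrenia, was marked in 3, and Zfp804b in control replicate 3 only.

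**Figure D5:**
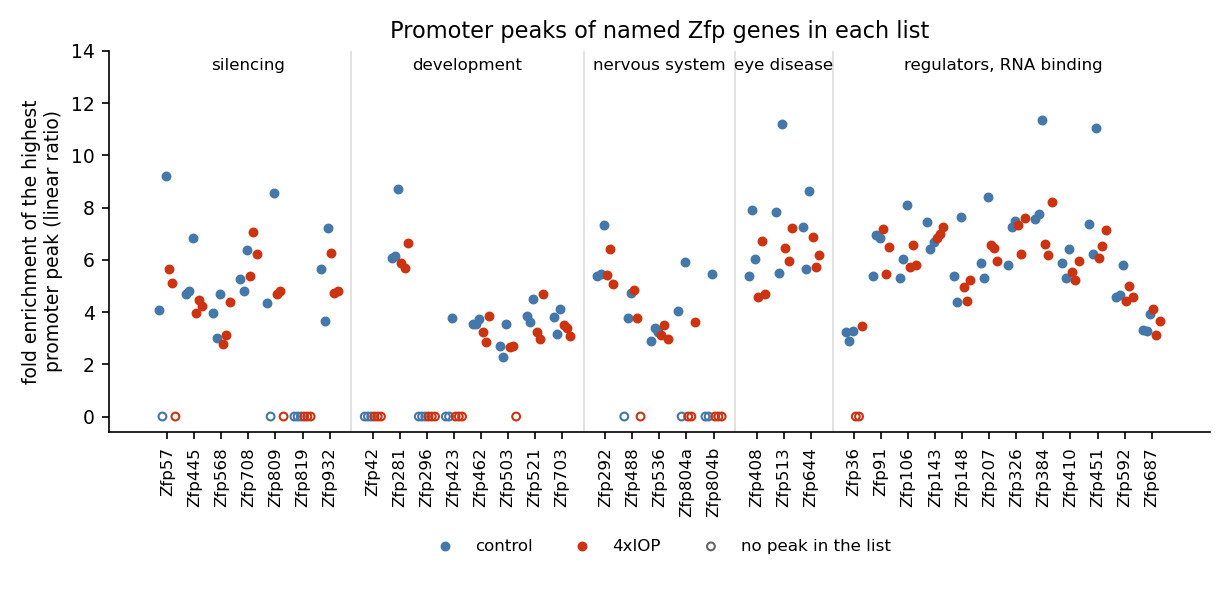
Fold enrichment of the highest promoter peak (y axis, linear ratio) for each named member (x axis, grouped by role), with 1 point per list, control in blue and 4xIOP in red. Open points at 0 stand for lists with no peak. Eye disease genes and most general regulators have 6 filled points, while Zfp42, Zfp296 and Zfp819 have none.

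A share compared between 3 control and 3 4xIOP lists cannot reach the threshold of 0.05 in an exact test. On average, control lists had 83.5% ± 4.92 of Zfp genes marked and 4xIOP lists 78.9% ± 2.43 (SD, n = 3 each), a difference of -4.52 points (two-sided exact permutation test, p = 0.3, where 0.1 is the smallest p that 3 against 3 allows). All protein-coding genes moved alike, by -4.67 points (p = 0.2, exact permutation test). The groups overlapped, since control replicate 2 and 4xIOP replicate 2 had the same share. Without control replicate 3, which held the most peaks, the difference was -1.88 points, and without control replicate 2 it was -6.73. With the same number of top peaks taken from each list it was -1.79 points. Among clustered and dispersed members it was -4.30 and -4.72 points.

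A few members were marked on 1 side only. Zfp618 (chromosome 4), Zfp975 (chromosome 7) and Zfp945 (chromosome 17) were marked in 3 control and 0 4xIOP lists, which is 0.767% of members against 0.36% of all coding genes. By the deposited names these control lists fall in both groups, so none of these members would be exclusive to 1 group. Zfp618 had folds of 4.07, 4.79 and 7.62 in the controls, Zfp975 had 4.07, 3.65 and 7.17, and Zfp945 had 4.70, 5.25 and 5.76. Their summits held 12 to 27 fragments, in the range of Zfp57, which was marked in some lists of each group and not in others. No member, and 0% of coding genes, was marked in 3 4xIOP and 0 control lists. With equal numbers of peaks per list the count was 0, so that it moved with the number of peaks used.

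Among the 277 members marked in 6 lists, promoter strength was ranked within each list. In 17 members (6.14%) all 4xIOP ranks lay above all control ranks, against 4.25% of the 8669 coding genes tested, and in 17 (6.14%) they lay below, against 3.93%. With limma on normal scores of the ranks and Benjamini-Hochberg adjustment over all 8669 genes, 0 members were called in either direction, and 0% of all genes. The smallest adjusted p was 0.9996. At an unadjusted limma p under 0.05, 5 of the 277 members were higher in 4xIOP and 6 lower. Of all 8669 genes tested, 128 (1.48%) were higher and 142 (1.64%) lower. The lower count moved with the lists used, in members and in all genes. In members it was 12 of 280 without 4xIOP replicate 1 and 12 of 288 without 4xIOP replicate 3. It was 10 of 283 without control replicate 2 and 3 of 277 without control replicate 3. Over all genes it was, in the same order, 175 of 8796, 250 of 9072, 205 of 8881 and 137 of 8669. The members' higher count ran from 3 to 6 with 1 list left out. The median difference over members was -0.04 normal-score units, and 0.005 over all genes. The members' median had no stable sign, being -0.09 without 4xIOP replicate 1 and 0.01 without 4xIOP replicate 2 or 4xIOP replicate 3.

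The members with the smallest unadjusted limma p are given as values. Zfp619 stood at the percentiles 99.4, 98.8 and 99.7 (control) and 94.8, 94.2 and 79.7 (4xIOP), with folds of 10.2, 9.12 and 13.6 against 7.23, 6.93 and 5.69. Its score difference was -1.36 with an SE of 0.37 (limma, Benjamini-Hochberg adjusted p = 0.9996). Its groups did not overlap as labelled, but they would under the deposited names, and the adjusted p did not pass. Zfp113 and Zfp949 followed at -0.99 and -0.96, and on the other side Zfp664, Zfp595 and Zfp974 at 0.94, 0.91 and 0.90 (limma, adjusted p = 0.9996 for each).

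The genes with which KRAB zinc finger proteins work were also widely marked. The list held 27 genes, mostly for the co-repressor, its SETDB1 and HP1 partners, the HUSH complex and related chromatin factors. It included Zkscan3, a zinc finger gene that is also counted among the Zkscan genes above. On average 87.7% of the list were marked, against 48.2% of all coding genes. Of the 27 genes, 19 (70.4%) were marked in 6 lists, beside 70.8% of all members and 39.5% of all coding genes. Among the 19 were Trim28 itself, Cbx3 and Cbx5 (HP1 proteins), Mphosph8, Fam208a and Pphln1 (HUSH) and the remodelers Atrx and Smarcad1. Setdb1, Atf7ip, Cbx1 and Daxx were marked in 5 lists, Hells in 4, Zkscan3 in 3, Uhrf1, a factor of dividing cells, in 1 and Atf7ip2 in 0. Control lists had 90.1% ± 5.66 of the 27 genes marked and 4xIOP lists 85.2% ± 3.70 (SD, n = 3 each), a difference of -4.94 points (p = 0.5, exact permutation test) beside -4.67 points over all coding genes.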

How the data were processed

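H3K27ac ChIP-seq of 6 single retinas (3 control, 3 4xIOP) was available as 1 narrowPeak list per sample. The deposited fold enrichment is the authors' ratio of summit pile-up to local background, with a small constant added to both. This lowers the fold most at peaks of few fragments. The deposited −log10 p-value, −log10 q-value and integer score come from their caller. The score was not used. The submitters' processing notes name STAR 2.7.8a, MACS2, HOMER, edgeR, bedtools 2.29.2 and mm10 without roles, and the caller's settings are not given in the sources used here. All peaks end within GRCm38 chromosomes, and this build was used. The lists state no read counts, and fragments were recovered from fold and p under a Poisson model (within 0.001 on the −log10 scale for 100% of 2000 tested peaks per list).

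Peaks were overlapped with windows by at least 1 bp in Python 3.11.15. Values per list were compared by exact permutation or sign-flip tests, and fold ranks by limma 3.58.1 in R 4.3.3 with Benjamini-Hochberg adjustment at 0.05. Scripts were tested on simulated data. Labels call the samples replicates without naming separate animals, so p-values measure the spread between these lists, which may be technical. Same-numbered samples did not deviate together (correlations -0.0167, -0.0443 and -0.144), so the numbers were not taken as pairs. Uniqueness was the share of 100-mers of a window found once in GRCm38. Upstream sequences were aligned globally with Biopython 1.88.

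The members and lists were chosen with earlier results of these data known. Named genes were members exclusive to 1 group, the 5 of highest mean fold percentile, 3 per direction of smallest limma p, and fixed role lists. Genes outside the rule, named among the unmarked members, the clusters and the motif matches, were chosen after their values were seen. The rule for sequences took up to 4 members of highest mean percentile, of which the fourth, Zfp866, was left out because its upstream bases overlap an annotated exon, and unmarked members of the 2 largest clusters, which gave Zfp820. Zfp469, the remaining eye disease orthologue, is not protein-coding in this annotation. Of the fixed retina markers, 1 is not reported here. A comparison by KRAB box was planned but not run, since protein sequences were not used here. Alternatives were a 1 kb window, a −log10 q of at least 5, the summit inside the window, 16195 peaks per list, each list left out, other joining distances, genes without a neighbouring TSS, ranks of −log10 p and a replicate block. A limit to at least 90% of unique 100-mers was added after seeing the data.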

Additional observations from a re-analysis of the deposited data

How the results depend on the processing

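The excess of marked Zfp promoters over other genes kept its direction under each alternative tried, between 32.1 and 37.1 points. Leaving out 1 list gave 33.3 to 33.8 points, and the gap in fold percentile then ran from 6.35 to 7.11. With 5 lists the exact sign-flip permutation test cannot go below p = 0.0625, so these p-values say nothing about stability. The contrast of clustered and dispersed genes was -1.96 points in 1 kb windows (p = 0.0625, exact sign-flip permutation test) and -2.66 to -2.24 with 1 list left out, and it turned to 5.75 points with neighbours joined at 100 kb and to 3.37 among genes with at least 90% of unique 100-mers (p = 0.0312 for each, the smallest p the exact test allows). The cause was not tested. The difference of 4xIOP and control shares stayed below 0, with too few lists for any exact test to pass, from -12.3 points (control replicate 3 and 4xIOP replicate 3 alone, the lists whose own names match their labels) to -1.79. It was -2.43 within the 3 lists whose shortest peak is above 200 bp and -7.42 within the others, both with 1 or 2 lists a group and no test. With the replicate block it was -4.52 points (p = 0.5, exact sign-flip permutation test over 3 pairs, which allow no p below 0.25), and limma with the block also called 0 members in each direction. The count of members marked in 3 control and 0 4xIOP lists fell to 0 with equal numbers of peaks per list. With 1 list left out it was 3 to 6 (6 without control replicate 2 or without 4xIOP replicate 1, 5 without 4xIOP replicate 2), and the count in the other direction was 0 to 2 (2 without control replicate 3). Leaving out a list asks for fewer lists, so such counts can only stay or rise in any set of genes. The shares of all coding genes are not given for these settings, so the rise is not read as particular to members. In each CpG class the excess of Zfp genes kept its direction under each alternative tried. Weak peaks of 10 to 30 fragments limit any statement on single members.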

Other observations

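Peaks inside the gene body, away from any promoter window, were less common at Zfp genes than at others. By list, 8.18%, 7.16% and 14.1% (control) and 7.16%, 8.18% and 4.86% (4xIOP) of Zfp genes had such a peak. The mean was 8.27% for Zfp genes and 12.8% for other protein-coding genes, although their median lengths were close, 17.5 and 17.4 kb (exact sign-flip permutation test, p = 0.0312, lower in 6 of 6 lists). Among genes of 10 to 40 kb whose promoter was marked in 6 lists, it was 5.70% of 187 Zfp genes and 14.5% of 3473 others (p = 0.0312, exact sign-flip permutation test). In this class the others were longer, with a median of 21.2 kb against 17.8 kb, so the comparison is not matched on length.

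In all, 66 members (16.9%) had a body peak in any list and 12 (3.07%) in all 6 lists, beside 23.2% and 5.35% of all coding genes. These 12 were Zfp13, Zfp148, Zfp185, Zfp384, Zfp385b, Zfp438, Zfp462, Zfp536, Zfp563, Zfp710, Zfp771 and Zfp800. Zfp385b and Zfp536 are the longest of them at 409 and 302 kb. Zfp185, an X-linked gene for a LIM domain protein, had a body peak in 6 lists but a marked promoter in 0.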
